A study of Mus musculus with 11 samples.

Results

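The genes described here are a WNT ligand, a WNT receptor and the nuclear factors and target genes of the pathway, followed in mouse epiblast stem cells (EpiSCs). They were taken by gene symbol: Wnt8a, Fzd10, Rnf43, Tcf7l1, Lef1, Tcf7, Axin2, Nkd1 and Sp5. Of these 9 genes, 7 had a probe in the deposited table, with 12 of its 15718 probes. Tcf7 and Rnf43 were not analysed here. Wnt8a and Sp5 were named for how they move with G-CSF, so all values of these genes are given as a description without a test, and the tests concern the other 5 genes.

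EpiSCs are pluripotent cells of the post-implantation epiblast, and all cultures here were of strain 129xMF1 and were kept in N2B27 medium with Activin and Fgf. Total RNA was measured on 11 arrays in 4 groups: GY118F EpiSCs without G-CSF (3 arrays), GY118F EpiSCs given G-CSF for 3 hours (2 arrays), control EpiSCs without it (3 arrays) and control EpiSCs that had G-CSF over the same 3 hours (3 arrays). GY118F, the transgene, is a chimera of the extracellular G-CSF receptor and intracellular gp130 in which the Shp2-binding tyrosine is replaced, and it activates STAT3 when G-CSF binds. The labels list no transgene for the control line, give no promoter for the transgene, describe no sham-treated culture, and do not say whether a line is 1 clone or whether replicates were separate cultures. The p-values therefore speak only of how far these arrays spread, and that spread may be technical. The 2 lines may also differ in ways other than the transgene, which cannot be told apart from it here.

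WNT ligands bind Frizzled receptors and their LRP co-receptors at the cell surface. This stops the Axin-containing destruction complex from marking beta-catenin for degradation, and beta-catenin then acts in the nucleus with TCF and LEF factors on target genes, several of which feed back on the pathway. In EpiSCs and the gastrulating epiblast, WNT signalling is known for its part in primitive streak and mesoderm formation.

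Values are the authors' normalised log2-scale intensities, and each group value is a mean ± SD over its arrays. Over all probes, r was 0.994 to 0.998 within groups and 0.960 to 0.982 between them. Values ran from 7.11 to 15.22 with a median of 8.16, and no detection p-values were available, so whether a dim probe was above background is unknown. As a check of the receptor, Socs3, a STAT3 target that inhibits cytokine signalling, rose by 3.00 log2 units with G-CSF in GY118F EpiSCs, from arrays at 8.94 to 8.98 to arrays at 11.94 and 11.99. In control EpiSCs it was lower by 0.17 log2 units with G-CSF. Unstimulated control arrays lay at 8.19 to 8.27, so Socs3 already stood 0.73 log2 units higher in GY118F EpiSCs without G-CSF. The mean over 8 markers of EpiSCs and general pluripotency lay between 9.86 and 10.65 on all arrays, above the median of all probes. Single markers varied widely: in unstimulated GY118F EpiSCs their group means ran from 8.19 (Otx2), near that median, to 13.80 (Dnmt3b). Markers of naive pluripotency were not analysed here. In these bulk samples, fewer cells expressing a gene and less RNA per cell cannot be told apart.

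After 3 hours of G-CSF, most of the measured WNT genes stood higher in both lines, and Wnt8a stood lower in GY118F EpiSCs. Of the 5 genes other than Wnt8a and Sp5, 5 were called higher in GY118F EpiSCs by their leading probe, the one brightest on average; of all 15718 probes 37.1% were called, 17.6% higher and 19.5% lower. In control EpiSCs, 4 of 5 were called higher and none lower, where 40.3% of all probes were called, 19.8% higher and 20.5% lower. Calls are from limma with Benjamini-Hochberg adjustment over all probes and a threshold of 0.05. The median changes of the 5 genes were 0.44 and 0.47 log2 units against -0.00 and 0.01 over all probes. By probe, these 5 genes had 7 of 8 called higher in GY118F EpiSCs and 6 of 8 in control EpiSCs. The genes were chosen with earlier results of these data known, so nothing further is read from these counts.

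**Figure D1:**
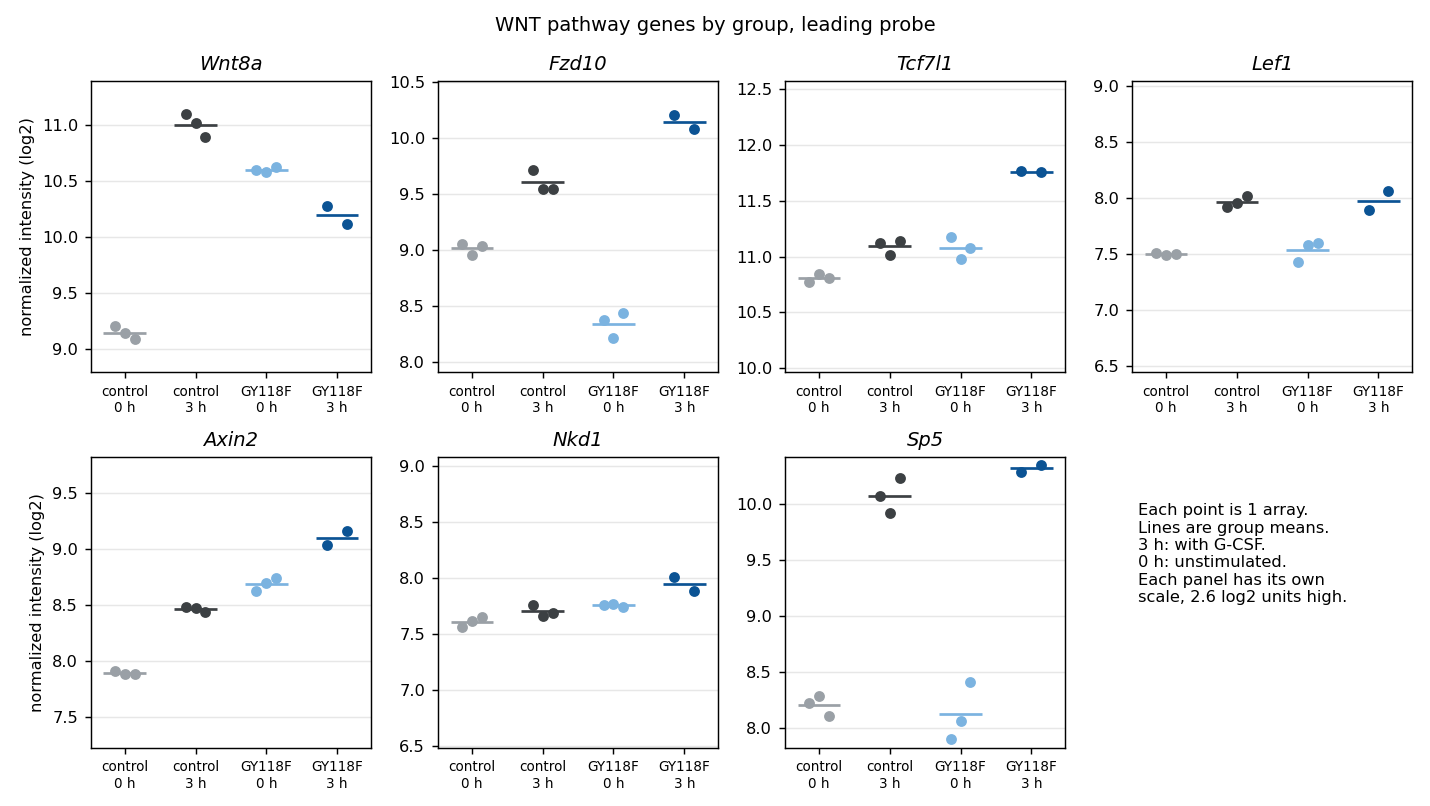
Normalised log2 value of the leading probe of each of the 7 genes on every array, by group; points are arrays and short lines are group means, and each panel has its own vertical range of equal height. Wnt8a was highest in control EpiSCs with G-CSF (10.90 to 11.10) and lowest in control EpiSCs without it (9.09 to 9.20), whereas Sp5 lay between 9.92 and 10.35 on all arrays with G-CSF.

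Wnt8a encodes a secreted WNT ligand expressed in the early streak and posterior embryo. Its leading probe lay at 9.20, 9.14 and 9.09 in unstimulated control EpiSCs and at 11.10, 11.02 and 10.90 in control EpiSCs given G-CSF. In GY118F EpiSCs the order was turned: the unstimulated arrays lay at 10.60, 10.58 and 10.63, and the G-CSF arrays at 10.28 and 10.11. The 4 groups did not overlap and ranked as control unstimulated, GY118F with G-CSF, GY118F unstimulated and control with G-CSF, from low to high.

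The G-CSF change of Wnt8a was 1.86 ± 0.06 (SE) log2 units in control EpiSCs, a 3.63-fold rise in the mean, and -0.40 ± 0.07 in GY118F EpiSCs, where the mean was 1.32-fold lower. The difference between the lines was -2.26 ± 0.09. Its second probe moved by 1.77 and -0.63, and the remaining one by 1.17 and -0.31. All 3 probes gave the same order of the 4 groups, with no overlap between neighbours. They read 1 gene chosen for its pattern, and the share of all probes so separated was not counted, so nothing further is read from this. The size of the GY118F change depends on few arrays: without GY118F G-CSF replicate 3 the leading probe stood at -0.32 and the second at -0.75, and the negative direction was kept.

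The lines are compared on the same arrays by which the gene was chosen, so these values too are a description. Without G-CSF, the mean of Wnt8a was 2.74-fold higher in GY118F than in control EpiSCs (1.45 ± 0.06 log2 units), and its other probes were higher by 1.48 and 0.88. With G-CSF it was 1.75-fold lower in GY118F EpiSCs (-0.81 ± 0.07), with -0.91 and -0.59 at the other probes. The level of Wnt8a in unstimulated GY118F EpiSCs was 0.40 below that in control EpiSCs with G-CSF, and these groups did not overlap.

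Fzd10, a Frizzled receptor, rose in both lines and by more in GY118F EpiSCs. Its leading probe lay at 8.37, 8.21 and 8.43 in unstimulated GY118F EpiSCs and at 10.21 and 10.08 with G-CSF. In control EpiSCs it lay at 9.05, 8.95 and 9.04 without and 9.72, 9.54 and 9.55 with G-CSF. No group overlapped another: GY118F EpiSCs held both the lowest and the highest level.

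The rise was 1.81 ± 0.08 log2 units in GY118F EpiSCs (3.50-fold, limma adjusted p = 5.36e-09) and 0.59 ± 0.07 in control EpiSCs (1.5-fold, limma adjusted p = 2.22e-05). The difference of these changes was 1.22 ± 0.10 with a 95% interval of 1.00 to 1.44 (limma adjusted p = 1.54e-05), a comparison in which 4.89% of all probes were called, 3.18% higher and 1.71% lower. Its other 2 probes gave differences of 0.61 and 0.40, both called. Their rises were 0.89 and 0.58 in GY118F EpiSCs and 0.29 and 0.18 in control EpiSCs, and the last of these was no longer called (0.04, limma adjusted p = 0.476) once values under the 25th percentile were set to it, called the floor below.

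Fzd10 thus also differed between the lines at rest. Unstimulated, it was lower in GY118F EpiSCs by 0.67 ± 0.07 log2 units (limma adjusted p = 7.70e-06), and with G-CSF it was higher there by 0.54 ± 0.08 (limma adjusted p = 0.000157). Its other probes stood at -0.24 and -0.11 without G-CSF, of which the latter was not called (limma adjusted p = 0.1), and at 0.37 and 0.29 with it, both called. The neighbouring transcript annotated as Fzd10os, opposite strand to Fzd10, did not rise with G-CSF: its change was -0.01 in GY118F and -0.51 in control EpiSCs. The difference of these changes was 0.51 (limma adjusted p = 0.00586), with the sign of that of Fzd10. Like Fzd10, Fzd10os was lower in unstimulated GY118F EpiSCs, by 0.69 (limma adjusted p = 2.44e-06). With G-CSF, Fzd10os stood at -0.18 there and was not called (limma adjusted p = 0.0699).

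**Figure D2:**
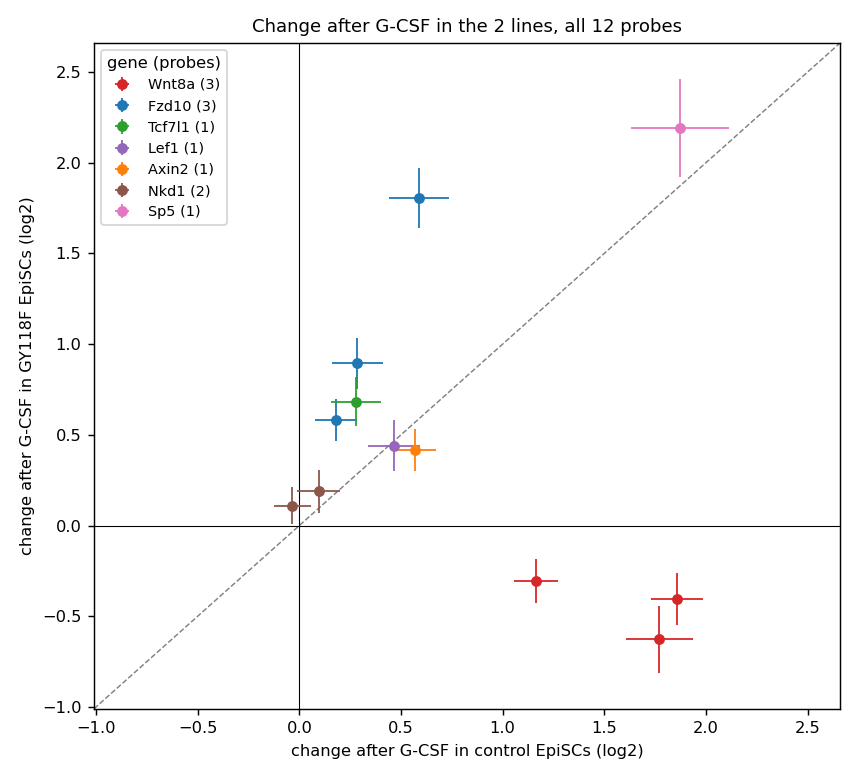
Change with G-CSF (log2 units) in GY118F EpiSCs, vertical, against that in control EpiSCs, horizontal, for all 12 probes, coloured by gene; lines through each point are 95% intervals from limma and the dashed line marks equal change. The 3 Wnt8a probes lie below 0 on the vertical axis (leading probe -0.40) and above 0 on the horizontal (1.86), the 3 Fzd10 probes lie above the dashed line, and Sp5 lies at 2.19 and 1.87. The intervals of Wnt8a and Sp5 are drawn as a description and are no test.

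Tcf7l1 (also called Tcf3) is a TCF factor known mainly as a repressor of WNT target genes in pluripotent cells. In GY118F EpiSCs it lay at 11.18, 10.97 and 11.08 without and 11.76 and 11.76 with G-CSF. In control EpiSCs it lay at 10.78, 10.85 and 10.81 without and 11.12, 11.01 and 11.14 with G-CSF, and the latter overlapped the unstimulated GY118F arrays. The rise with G-CSF was 0.68 ± 0.06 log2 units in GY118F EpiSCs (1.61-fold, limma adjusted p = 4.02e-06) and 0.28 ± 0.06 in control EpiSCs (1.21-fold, limma adjusted p = 0.0015). The difference, 0.40 ± 0.08 with an interval of 0.22 to 0.59, was called (limma adjusted p = 0.0139) but not without GY118F G-CSF replicate 2, where it was still 0.40 (limma adjusted p = 0.0524). Leaving out that array leaves 1 stimulated GY118F array, here and below, which is then assumed to vary like the arrays of the other groups.

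Tcf7l1 was higher in GY118F than in control EpiSCs both without G-CSF, by 0.26 ± 0.06 (limma adjusted p = 0.00282), and with it, by 0.67 ± 0.06 (limma adjusted p = 5.19e-06). Lef1, a factor that activates WNT targets together with beta-catenin, did not share this difference between the lines. It lay between 7.42 and 7.59 on all arrays without G-CSF and between 7.89 and 8.06 on all with it, so the lines overlapped in each state. Its rise was 0.44 ± 0.07 in GY118F EpiSCs (limma adjusted p = 0.00019) and 0.47 ± 0.06 in control EpiSCs (limma adjusted p = 4.24e-05). The difference between the rises was -0.02, with an interval of -0.21 to 0.16 (limma adjusted p = 0.944), which bounds it without showing that the rises were equal.

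Axin2, a negative regulator in the destruction complex and itself a WNT target, rose in both lines from levels that differed between them. Its arrays lay at 7.91, 7.89 and 7.88 in unstimulated control EpiSCs and at 8.48, 8.47 and 8.44 with G-CSF. In GY118F EpiSCs they lay at 8.62, 8.69 and 8.74 without and 9.04 and 9.16 with G-CSF, and no group overlapped another. The rise was 0.42 ± 0.05 log2 units in GY118F EpiSCs (limma adjusted p = 6.51e-05) and 0.57 ± 0.05 in control EpiSCs (limma adjusted p = 1.65e-06), and their difference of -0.15, with an interval of -0.31 to 0.00, was not called (limma adjusted p = 0.304). Axin2 was higher in GY118F EpiSCs by 0.79 ± 0.05 without G-CSF (1.73-fold, limma adjusted p = 7.52e-08) and by 0.64 ± 0.05 with it (limma adjusted p = 2.20e-06).

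Nkd1, an inhibitor of WNT signalling that binds Dishevelled, had small changes throughout. Its leading probe lay at 7.76, 7.77 and 7.74 in unstimulated and 8.01 and 7.88 in stimulated GY118F EpiSCs, a change of 0.19 ± 0.05 (limma adjusted p = 0.0154) that was not called without GY118F G-CSF replicate 2 (0.13, limma adjusted p = 0.167). In control EpiSCs the change was 0.10, with an interval of -0.01 to 0.20 (limma adjusted p = 0.14). Its difference between the unstimulated lines, 0.15 (limma adjusted p = 0.0348), was not called after removal of any of 5 single arrays, and that with G-CSF, 0.24 (limma adjusted p = 0.00493), lost its call without GY118F G-CSF replicate 2. The second Nkd1 probe was called in none of the 5 comparisons.

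Sp5, a zinc finger factor of the Sp family and a direct WNT target, reached a similar range in both lines. Without G-CSF it lay at 7.90, 8.07 and 8.41 in GY118F and at 8.22, 8.29 and 8.11 in control EpiSCs, which overlap. With G-CSF it lay at 10.29 and 10.35 in GY118F and at 10.08, 9.92 and 10.24 in control EpiSCs. All arrays with G-CSF were above all without it.

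The change was 2.19 ± 0.12 log2 units in GY118F EpiSCs (4.57-fold) and 1.87 ± 0.11 in control EpiSCs (3.66-fold), ranks 7 and 8 among the upward changes of all 15718 probes. The difference was 0.32 ± 0.17. GY118F minus control was -0.08 ± 0.11 without G-CSF and 0.24 ± 0.12 with it. The arrays with G-CSF did not overlap. Since Sp5 was chosen for a rise in both lines and Wnt8a for moving oppositely, the contrast between them is the choice itself and no result.

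Promoter windows are shown for Sp5, which was higher on all arrays with G-CSF than on all without it, and for Axin2 and Fzd10, which differed between the unstimulated lines, because WNT target genes are known to carry TCF/LEF sites. They run from 250 bases before to 50 after the annotated start (RefSeq, GRCm38.p6, all on the + strand): Sp5 at chr2:70474673-70474972, Axin2 at chr11:108920099-108920398 and Fzd10 at chr5:128600856-128601155. Capitals mark matches to CTTTG followed by any pair of letters drawn from A and T, on either strand.
Sp5: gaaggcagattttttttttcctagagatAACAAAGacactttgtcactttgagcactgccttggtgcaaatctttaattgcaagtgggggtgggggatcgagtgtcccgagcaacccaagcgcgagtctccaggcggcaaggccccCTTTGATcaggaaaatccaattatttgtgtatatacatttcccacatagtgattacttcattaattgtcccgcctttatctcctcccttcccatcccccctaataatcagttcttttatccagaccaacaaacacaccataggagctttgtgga
Axin2: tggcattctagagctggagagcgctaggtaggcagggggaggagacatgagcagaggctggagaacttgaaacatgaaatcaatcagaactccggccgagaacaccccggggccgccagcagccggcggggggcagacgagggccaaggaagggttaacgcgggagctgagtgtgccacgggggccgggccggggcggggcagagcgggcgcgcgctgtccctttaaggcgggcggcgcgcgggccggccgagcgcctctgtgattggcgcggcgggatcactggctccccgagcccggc
Fzd10: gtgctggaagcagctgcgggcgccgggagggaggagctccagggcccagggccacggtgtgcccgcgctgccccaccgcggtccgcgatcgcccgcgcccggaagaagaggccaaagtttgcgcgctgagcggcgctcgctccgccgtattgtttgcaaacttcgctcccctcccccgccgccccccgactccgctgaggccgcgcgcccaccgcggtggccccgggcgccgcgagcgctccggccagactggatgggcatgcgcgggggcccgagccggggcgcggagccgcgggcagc

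The Sp5 window held 2 matches, with their first letters 222 and 104 bases before the start, the first of them on the opposite strand. The windows of Axin2 and Fzd10 held none, which says only that these letters are not in these windows. Among 13 windows of 8 of the 9 genes, 2 held a match, the other in a window of Lef1, where 16.9% of all 32851 promoter windows of the same length hold one. The STAT letters TTCNNNGAA, searched on both strands, were in 0 of the 13 windows and in 8.3% of all. A match is a description of letters, not a site.

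**Figure D3:**
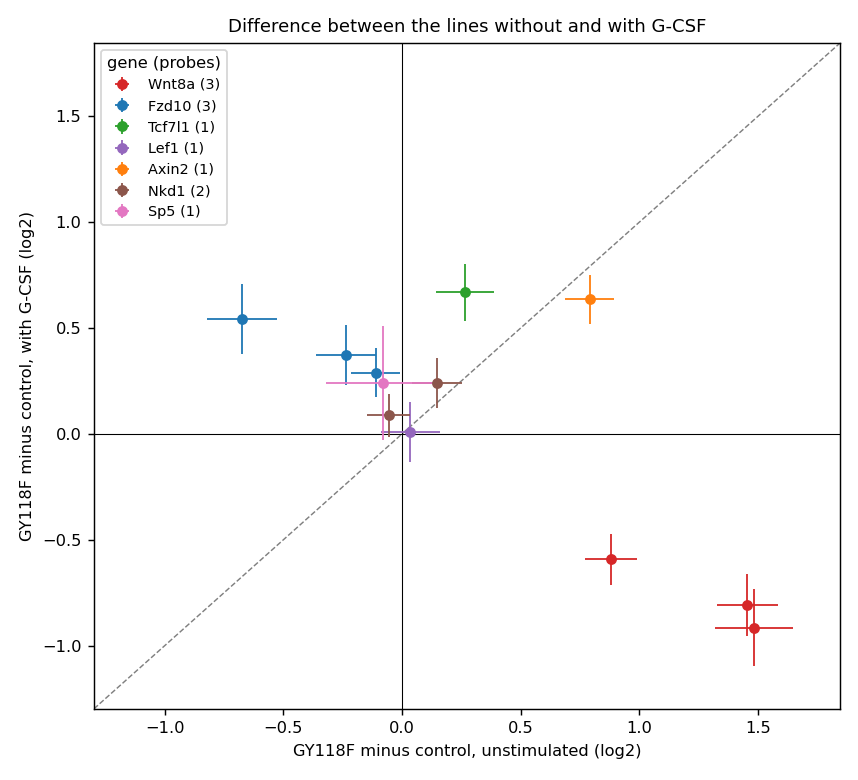
GY118F minus control (log2 units) with G-CSF, vertical, against the same without it, horizontal, for all 12 probes, coloured by gene; lines through each point are 95% intervals from limma and the dashed line marks equal values. The leading probe of Wnt8a lies at -0.81 with and 1.45 without G-CSF and that of Fzd10 at 0.54 and -0.67, while Axin2 is above 0 on both axes (0.64 and 0.79). The intervals of Wnt8a and Sp5 are drawn as a description and are no test.

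Over the 5 genes other than Wnt8a and Sp5, GY118F EpiSCs without G-CSF had 3 called higher than control EpiSCs (Axin2, Tcf7l1 and Nkd1) and 1 lower (Fzd10), where 30.3% of all probes were called, 15.2% higher and 15.2% lower. With G-CSF, 4 were higher (Fzd10, Tcf7l1, Axin2 and Nkd1) and none lower, where 27.4% of all probes were called, 13.9% higher and 13.4% lower. Fzd10 therefore lay below the control line without G-CSF and above it with G-CSF.

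Of 95 other WNT pathway genes on a list ordered by role, 50 had a probe. With G-CSF, 14 were called higher and 14 lower in GY118F EpiSCs, with a median change of -0.07, and 13 higher and 7 lower in control EpiSCs, with a median of 0.03. The shares of all probes called were 17.6% and 19.5% in GY118F EpiSCs and 19.8% and 20.5% in control EpiSCs, and nothing particular to the list is read from the counts. When each array was left out in turn, 11 of the 14 higher and 6 of the 14 lower calls in GY118F EpiSCs held in every fit, and 11 of 13 and 5 of 7 in control EpiSCs. The difference of the changes was called for 3 higher and 5 lower, against 3.18% and 1.71% of all probes. Between the unstimulated lines 22 were higher and 8 lower in GY118F EpiSCs (15.2% and 15.2% of all probes), and with G-CSF 17 higher and 8 lower (13.9% and 13.4%), of which 10 and 4 held in every fit.

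Among 4 ligands, 1 was called higher in GY118F EpiSCs and 2 in control EpiSCs, Wnt3 and Wnt5a, where the shares of all probes were 17.6% and 19.8% and the Wnt5a call was lost with the floor. Wnt3, a ligand needed for streak formation, rose by 0.54 ± 0.05 and 0.51 ± 0.05 (limma adjusted p = 6.58e-06 and 3.53e-06). Its arrays ran from 7.43 to 7.49 without and 7.95 to 8.07 with G-CSF in GY118F EpiSCs, and from 7.70 to 7.75 and 8.17 to 8.27 in control EpiSCs. Unlike Wnt8a, Wnt3 thus rose in both lines. Of 3 ligand processing genes, 2 were called lower and 1 higher in GY118F EpiSCs (19.5% and 17.6% of all probes). There Porcn, which acylates WNT ligands, fell by 0.46 and Wls, which carries them to the surface, fell by 0.29. Notum, which deacylates WNT ligands, stood at 0.30 (limma adjusted p = 0.00312), a call lost with the floor (0.079, limma adjusted p = 0.152). In control EpiSCs only Wls was called lower (20.5% of all probes), a call lost in some fits that left out an array. The difference of the changes was called for none of the 3, where 4.89% of all probes were called.

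Of 9 other receptors, 2 were called higher and 5 lower in GY118F EpiSCs (17.6% and 19.5% of all probes), and 3 higher and 2 lower in control EpiSCs (19.8% and 20.5%). Of the 5 lower calls in GY118F EpiSCs 1, that of Fzd2, held with each array left out, and those of Fzd5, Fzd7, Ror2 and Ryk did not. Fzd6 rose by 0.68 in GY118F EpiSCs (limma adjusted p = 2.43e-06) and stood at 0.10 in control EpiSCs, with a difference of 0.58 ± 0.08 (limma adjusted p = 0.000806). Fzd2 fell by 0.59 in GY118F EpiSCs, with arrays at 9.42, 9.28 and 9.21 without and 8.65 and 8.77 with G-CSF, and stood at -0.07 in control EpiSCs. Its difference was -0.52 ± 0.09 (limma adjusted p = 0.00348). Without G-CSF, Fzd2 and Fzd7 were higher in GY118F EpiSCs by 0.90 and 0.89, the opposite of Fzd10.

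Ror2, a co-receptor for WNT5A-type signals, showed the same sign pattern as Wnt8a in the means. It rose by 0.50 ± 0.06 in control EpiSCs (limma adjusted p = 5.44e-05), and the difference between the lines was -0.69 ± 0.10 (limma adjusted p = 0.000929). Its change in GY118F EpiSCs was -0.20, and the call was lost on removing any of 8 single arrays. For Fzd7 the changes were 0.32 in control EpiSCs and -0.16 in GY118F EpiSCs, where the call was lost without any of 7 single arrays, and the difference was -0.48 ± 0.07 (limma adjusted p = 0.0024).

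Among secreted inhibitors, Sfrp1, which binds WNT ligands, was higher in unstimulated GY118F than control EpiSCs by 1.63 ± 0.13 (limma adjusted p = 7.56e-07), with GY118F arrays at 10.94, 10.78 and 10.27 and control arrays between 8.99 and 9.11. With G-CSF it fell by 0.83 ± 0.14 in GY118F EpiSCs (limma adjusted p = 0.000627) and stood at -0.14 in control EpiSCs. The difference, -0.68 (limma adjusted p = 0.0658), was called without GY118F unstimulated replicate 3 (-0.88). Kremen2, a DKK receptor, rose in both lines, by 0.37 and 0.34.

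In the cytoplasmic group of 12 genes, 4 were called lower and none higher in GY118F EpiSCs, and 3 lower and 1 higher in control EpiSCs, where 19.5% and 20.5% of all probes were called lower. In GY118F EpiSCs the calls of Gsk3b and Csnk1d were lost in some fits that left out an array. The kinase gene Csnk1e fell by 0.46 and 0.45, and Btrc, which encodes the beta-catenin ubiquitin ligase subunit, fell by 0.42 and 0.36. Ctnnb1, which encodes beta-catenin, was not called in any of the 5 comparisons. Of 7 nuclear factors, 3 were called higher in GY118F EpiSCs (17.6% of all probes), of which 1 held with each array left out. That was Tle1, a Groucho-type co-repressor, which rose there by 0.30 and differed between the lines by 0.43 ± 0.07 (limma adjusted p = 0.00417).

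Of 8 other target genes, 5 were called higher and 1 lower in GY118F EpiSCs (17.6% and 19.5% of all probes), and 4 higher and none lower in control EpiSCs (19.8% and 20.5%). Ccnd1, which encodes cyclin D1, rose by 0.86 and 0.66 and was lower in GY118F than control EpiSCs without G-CSF (-1.03 ± 0.05, limma adjusted p = 1.66e-08), the opposite of Axin2. Cdx2, a posterior homeobox gene, rose by 0.46 in GY118F and 1.23 in control EpiSCs, with a difference of -0.77 ± 0.10 (limma adjusted p = 0.00055) that was -0.47 and not called with the floor (limma adjusted p = 0.0516). It was higher in unstimulated GY118F EpiSCs by 0.63. Tnfrsf19 rose by 0.55 and 0.87, and its difference of -0.32 lost its call without any of 9 single arrays.

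**Figure D4:**
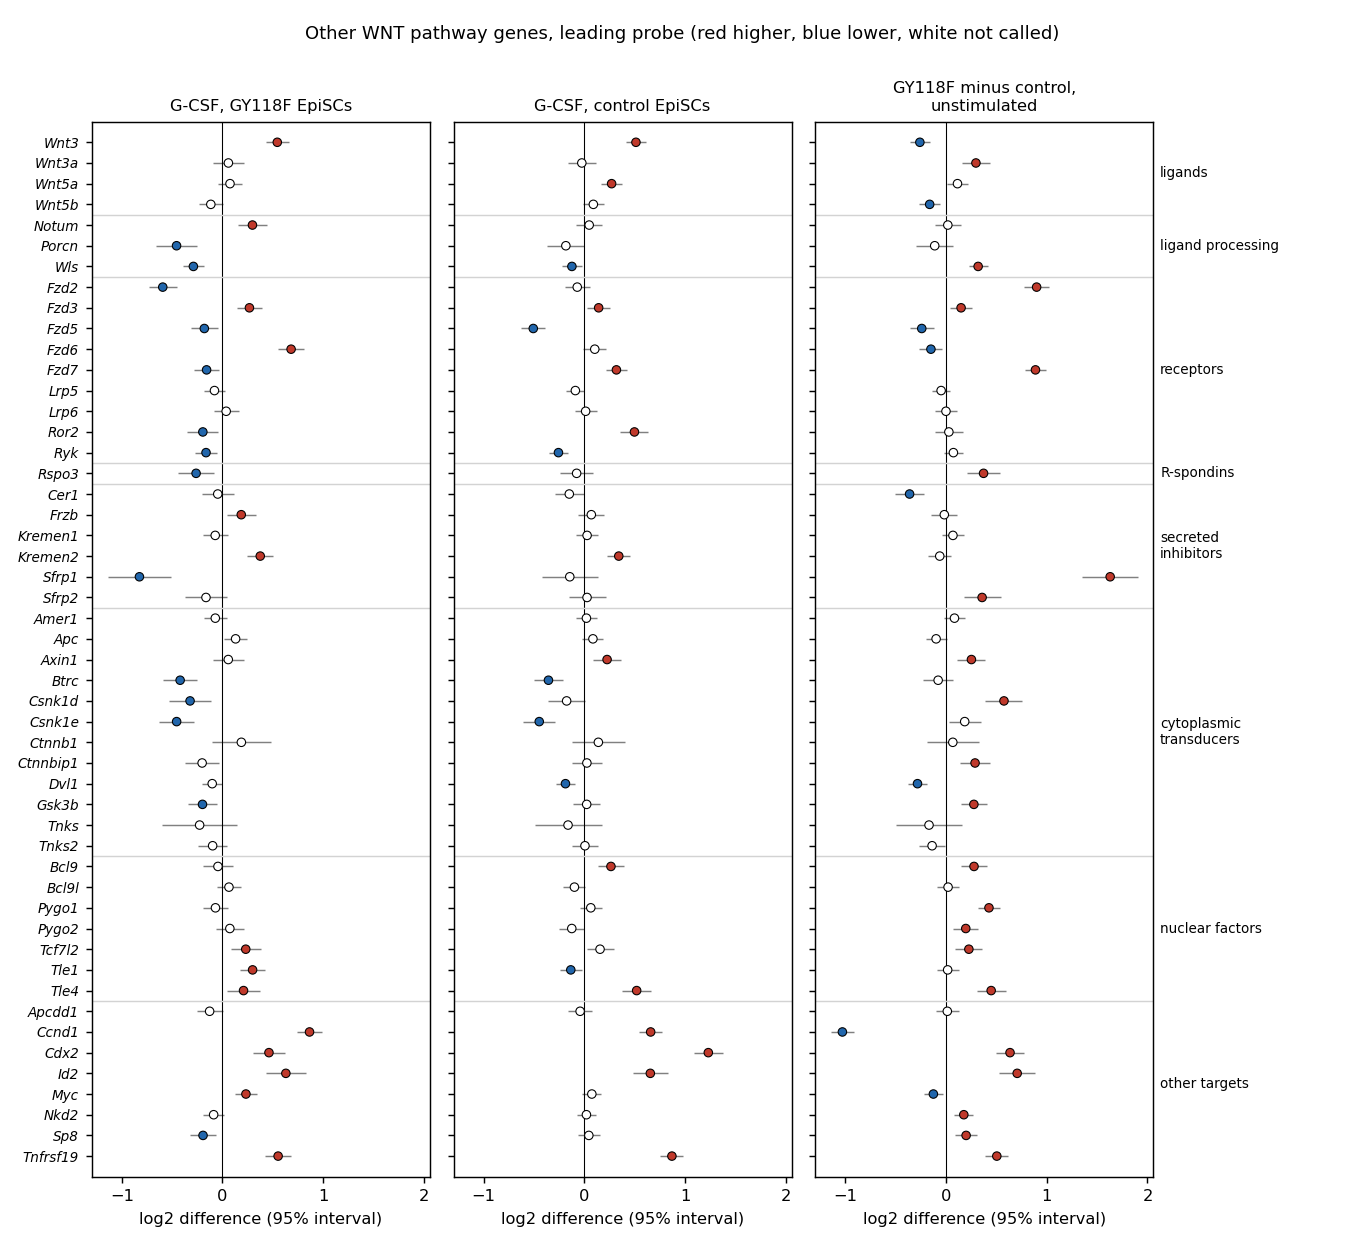
Differences (log2 units) of the leading probe of the 50 other pathway genes, by role, in 3 panels: G-CSF in GY118F EpiSCs, G-CSF in control EpiSCs, and GY118F minus control without G-CSF; lines are 95% intervals from limma, and red, blue and white mark genes called higher, called lower and not called. Ccnd1 lies right of 0 in both G-CSF panels (0.86 and 0.66) and left of it between the lines (-1.03), and Fzd2 lies at -0.59, -0.07 and 0.90.

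Genes whose values ran most like those of a member were ranked by Pearson's r over the 11 arrays, among 507 probes whose group means spanned at least 1 log2 unit; arrays of a group are not independent of its condition, and this is a description. For Wnt8a the closest were Sall3 (r = 0.899), Fst (0.876) and Cdx2 (0.861). In GY118F EpiSCs Sall3 stood at -0.03, Fst at 0.82 and Cdx2 at 0.46, against rises of 1.48, 2.40 and 1.23 in control EpiSCs. For Sp5 the closest were Rai14 (0.989), Nab1 (0.987), Slc30a1 (0.985), Lor (0.985) and Fjx1 (0.981), which changed by 1.01 to 2.74 in GY118F and 0.83 to 2.22 in control EpiSCs. For Fzd10 they were Gbp3 (0.979), Wsb2 (0.972), Snai3 (0.972) and Slc30a3 (0.969).

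Most of the marker lists differed between the lines too, and their part in the results above was not tested. The mean over 6 of 7 primitive streak markers lay between 7.74 and 7.86 in unstimulated GY118F EpiSCs, 8.30 and 8.38 with G-CSF, 8.29 and 8.41 in unstimulated control EpiSCs and 8.94 and 9.02 with G-CSF, so it was higher on every array with G-CSF within each line and lower in GY118F EpiSCs in both states. With G-CSF, 4 of the 6 were called higher in GY118F EpiSCs (17.6% of all probes), and 3 higher and 1 lower in control EpiSCs (19.8% and 20.5%). Single markers went apart: Fgf8 rose by 1.49 in GY118F and stood at 0.03 in control EpiSCs, while Evx1 rose by 0.85 and 1.85. The mean over the 8 pluripotency markers ranged from 9.86 to 9.96 in unstimulated GY118F and 10.41 to 10.52 in unstimulated control EpiSCs. Between these groups 5 of the 8 were called lower in GY118F EpiSCs and 1 higher, against 15.2% and 15.2% of all probes. Otx2 was lower by 2.09 and Fgf5 by 1.41, and Sox2 was higher by 0.51. Among markers of other cell types, Thy1, the only fibroblast marker of 5 that was measured, lay between 7.57 and 7.91 in unstimulated GY118F and 8.51 and 8.69 in unstimulated control EpiSCs. The mean over 2 of 5 endoderm markers lay between 7.32 and 7.38 and between 7.55 and 7.74, in the same order of groups. That over 2 of 4 haematopoietic markers lay between 7.76 and 7.80 and between 7.998 and 8.09. That over 2 of 5 trophoblast markers lay between 8.21 and 8.28 and between 8.50 and 8.56. Nes, the only neural marker of 4 that was measured, was not called between the lines (limma adjusted p = 0.218 without and 0.442 with G-CSF). With G-CSF, Nes rose by 0.44 in GY118F and 0.40 in control EpiSCs, and Thy1 fell by 0.29 and 0.49. The trophoblast marker Krt8 fell by 0.43 in control EpiSCs and stood at 0.07 in GY118F EpiSCs. The haematopoietic marker Coro1a was called lower in control EpiSCs (-0.14, limma adjusted p = 0.0452), and no endoderm marker was called with G-CSF in either line.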

How the data were processed

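Total RNA was amplified and labelled with biotin for Illumina bead arrays, per the labels' protocols, and the deposited values are log2-scale intensities from lumi, as the submitters' processing notes name it; its version, and whether a plain log2 or a variance-stabilizing transformation was used, are not given in the sources used here. In the latter case log2 changes of dim probes understate the change. Sorted values differed between the 11 arrays by no more than 0.00116, so they had been quantile-normalized and total RNA differences are no longer in them. No intensity scans or detection p-values were used here. Probes were named from the platform annotation: 13711 had 1 symbol, 5 several and 2002 none listed.

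All 15718 probes were fitted with limma 3.58.1 (lmFit, eBayes) in R 4.3.3 over the 4 groups, without a replicate block; 5 contrasts had two-sided tests, adjusted by Benjamini-Hochberg over all probes, at 0.05. A gene was led by its probe with the highest mean. Stimulated GY118F arrays are numbered 2 and 3 by their source names; their titles say 1 and 2. Deviations of same-numbered arrays correlated at r from -0.45 to 0.52 with source name numbers (7 of 15 pairs over 0.1). With title numbers r ran from -0.29 to 0.45 (9 of 15, all 6 pairs of number 1 among them). Since not every pair was over 0.1, the main fit did not pair the arrays by number. This rule asks every pair to pass, so it cannot decide whether only some arrays shared a batch. The fit was tested on simulated data. Alternatives were 1 probe per gene, a floor for dim values, leaving out the dimmer 50% of probes and a threshold of 0.01. A replicate block by either numbering and leaving out each array were others. Also run were limma's trend and robust options, array weights, and a fit of only the groups compared (not for the difference of changes). Quantile normalization was also run once more, which could change almost nothing because the values had already been quantile-normalized. All probes of the member genes are named, and other pathway genes where called, at most 6 per role; genes also named for a contrast (Ctnnb1, Fzd10os, Socs3) were chosen with their values known. The members and lists were chosen with earlier results of these data known. Promoter windows are from RefSeq (GRCm38.p6); Wnt8a's was not used here.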

Additional observations from a re-analysis of the deposited data

Results flagged for a closer look

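Of the 5 genes other than Wnt8a and Sp5, the difference of the G-CSF changes was called for 2, where 4.89% of all probes were called. For Wnt8a the group means moved in opposite directions in the 2 lines, which is given without a test because the gene was chosen for this pattern. The difference, GY118F minus control, was -2.26, -2.40 and -1.47 log2 units at its 3 probes. For Fzd10 it was 1.22, 0.61 and 0.40 at its 3 probes, and for Tcf7l1 0.40, all past limma's adjusted threshold; the Tcf7l1 call was lost without GY118F G-CSF replicate 2.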

How the results depend on the processing

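With 1 probe per gene, 7, 6, 3, 5 and 5 of 7 member genes were called, for G-CSF in GY118F, G-CSF in control, the difference, and the lines without and with G-CSF, against 11, 10, 7, 8 and 9 of 12 probes; these counts include the 4 probes of Wnt8a and Sp5, from which nothing is read because those genes were chosen by these values. Without the dimmer 50% of probes, 7 of the 7 member probes left were called for G-CSF in GY118F EpiSCs, and 3760, 4096, 437, 3006 and 2786 of all 7859 probes. At an adjusted p of 0.01, 370 probes were called for the difference and 2695 between the lines with G-CSF, against 768 and 4303. Leaving out 1 array gave 10 to 11, 10, 6 to 8, 7 to 8 and 8 to 9 member probes, and 4399 to 5947, 5207 to 6529, 493 to 974, 3884 to 4878 and 2972 to 4448 probes in all; the lowest counts for the difference (493) and for the lines with G-CSF (2972) were without GY118F G-CSF replicate 2. The replicate block gave 11, 10, 7, 8 and 9 member probes with either numbering, and 5557, 6466, 713, 4837 and 4240 probes in all with source name numbers, 6124, 6710, 900, 5038 and 4413 with title numbers. Of 1198 comparisons of the 60 member values with their alternatives, 12 lost a call, 9 of them of Nkd1. The G-CSF changes of Wnt8a and Sp5, and the differences of these, were compared by sign and size only. They could therefore not lose a call, and 8 comparisons of Wnt8a moved by more than the spread between arrays. The second quantile normalization, counted here and below, could change almost nothing. Among the 45 called values, 0 changed sign. The 45 include values of Wnt8a and Sp5, from which nothing is read because those genes were chosen by these values. Of the uncalled values, 3 changed sign (Sp5 between the unstimulated lines, from -0.08 to as high as 0.03, and 2 of Lef1). Of 5174 such comparisons of the 50 other pathway genes and Socs3, 241 lost a call, 31 gained one and 0 called values changed sign. With 2 or 3 arrays a group, precision is limited, and signal over background could not be set without detection p-values.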
